A study of Mus musculus with 21 samples.

Results

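The genes described here are the neutrophil-attracting CXC chemokines Cxcl1, Cxcl2, Cxcl3, Cxcl5 and Cxcl15 and the receptor Cxcr2, 6 of the 32285 genes in the table, chosen by name. They were followed through the cell types of unchallenged mouse lung, lung metastases and primary tumors of the MT-ret melanoma model, in which melanoma fragments are grafted under the skin and metastases grow in the lung after the primary tumor is removed. Hosts were mT/mG mice, which carry the red fluorescent protein tdTomato in their own cells from the Rosa26 locus, while the grafted malignant melanoma (MM) cells carry none. Recipients were 8 to 10 weeks old at transplantation, and the age of the mice that gave unchallenged lung was not given. Living tdTomato+ cells, with or without a depletion of CD45+ leukocytes, gave the libraries of the tumor microenvironment (TME) and of lung, and sorted melanoma cells gave the MM libraries. The sources do not say which library was depleted, so the leukocyte content of a whole library and its tissue cannot be told apart. Primary tumors grew under the skin and no skin without tumor was sampled. Organ and tumor therefore cannot be told apart in any comparison of primary tumor with lung.

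The values are counts of unique molecular identifiers (UMIs), each standing for 1 captured RNA molecule. After libraries deposited under several names were counted once, 100359 cells in 16 libraries remained, with 4 of unchallenged lung (37386 cells), 4 of lung metastasis TME (7648 cells), 4 of primary tumor TME (6477 cells), 2 of lung metastasis MM (11948 cells) and 2 of primary tumor MM (36900 cells). Libraries hold 1777036 to 60339415 UMIs. Replicate numbers follow the sample titles. For some libraries, lung replicate 1 among them, the deposited name carries another number, and the match was inferred from the group, the mouse number or the sample left. Replicate 1-3 is 1 label for 2 named libraries in metastasis and for 3 in primary tumor, which were summed. The deposited library names carry a mouse number, by which metastasis and primary tumor replicates 1-3, 5 and 6 share mice, replicate 4 of these tissues does not, and the lung libraries came from other mice. Metastasis and primary tumor libraries are therefore not fully independent, and those of replicates 5 and 6 also stand under a second name with another mouse number. The same cells and counts as lung metastasis TME replicate 6 are also deposited as lung metastasis MM replicate 6. It was counted as TME, and 16 of its cells were named melanoma and 176 neutrophils, but its group label is in doubt. For the 6 genes, calls of the edgeR fit without a block that are lost without this library are given beside them. Calls of other genes, calls by DESeq2 and calls under a block were not repeated without it. Libraries that are not copies share at most 227 cell barcodes. Unchallenged lung replicate 6 stands apart, with 25966 shallow cells (median 1605 UMIs) in which Cxcr2, Cxcl2 and Cxcl15 UMIs occur in nearly every cell type. Primary tumor TME replicate 6 was shallower still (median 1203 UMIs) and gave 2062 fibroblasts. A level is given in CPM, the UMIs of a gene over all UMIs of the cells of 1 type in 1 library, scaled to 1000000 UMIs, and a level is described for a library with at least 20 cells of that type. Reads are 3′ tags, so levels are compared between cell types and tissues and not between genes, and whether the related chemokine genes shared reads was not tested.

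CXC chemokines with the sequence ELR before their first cysteines draw neutrophils along a gradient by binding the G protein-coupled receptor Cxcr2 on the neutrophil surface. In mice Cxcl1 and Cxcl2 are made quickly by stromal cells and myeloid cells after interleukin 1, tumor necrosis factor or bacterial signals, through NF-kB, and their RNAs are short-lived. Cxcl5 is known as an epithelial and stromal ligand, and Cxcl15, called lungkine, is made by the epithelium of the lung. Neutrophils both follow these ligands and make some of them, Cxcl2 above all.

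The 5 ligand genes lie on the plus strand of chromosome 5 within 146.579 kb (GENCODE vM21, GRCm38). Their order is Cxcl5 (chr5:90759360-90761624), Cxcl3 (chr5:90786103-90789600), Cxcl15 (chr5:90794534-90803067), Cxcl1 (chr5:90891241-90893115) and Cxcl2 (chr5:90903871-90905938). Cxcr2 lies on chromosome 1 (chr1:74153989-74161246, plus strand). The promoters of Cxcl1, Cxcl2 and Cxcl3 are printed because each of these ligands was higher in primary tumor than in lung in at least 1 cell type below, and that of Cxcl15 because it was not. The promoter of Cxcl5 is not shown. Each is the 250 bases before the RefSeq start (GRCm38.p6, plus strand, 5′ to 3′), with matches on either strand to the NF-kB letters GGG, any 2 bases and TTTCC in capitals. The regions are chr5:90890995-90891244 for Cxcl1, chr5:90903649-90903898 for Cxcl2, chr5:90785851-90786100 for Cxcl3 and chr5:90794284-90794533 for Cxcl15.
Cxcl1: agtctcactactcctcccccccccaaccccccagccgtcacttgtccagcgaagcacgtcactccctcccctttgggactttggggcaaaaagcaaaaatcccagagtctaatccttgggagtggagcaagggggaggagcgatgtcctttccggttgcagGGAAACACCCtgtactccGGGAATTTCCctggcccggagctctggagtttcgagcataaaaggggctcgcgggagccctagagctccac
Cxcl2: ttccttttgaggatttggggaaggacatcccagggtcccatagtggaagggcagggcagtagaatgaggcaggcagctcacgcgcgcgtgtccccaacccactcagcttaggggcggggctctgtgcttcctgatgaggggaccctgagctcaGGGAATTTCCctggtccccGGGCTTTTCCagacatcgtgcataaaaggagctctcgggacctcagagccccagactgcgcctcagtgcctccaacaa
Cxcl3: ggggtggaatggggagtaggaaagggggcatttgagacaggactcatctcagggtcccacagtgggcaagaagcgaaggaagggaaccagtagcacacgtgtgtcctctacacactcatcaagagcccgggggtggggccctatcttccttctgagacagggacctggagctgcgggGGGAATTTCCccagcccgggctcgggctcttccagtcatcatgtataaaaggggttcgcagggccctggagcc
Cxcl15: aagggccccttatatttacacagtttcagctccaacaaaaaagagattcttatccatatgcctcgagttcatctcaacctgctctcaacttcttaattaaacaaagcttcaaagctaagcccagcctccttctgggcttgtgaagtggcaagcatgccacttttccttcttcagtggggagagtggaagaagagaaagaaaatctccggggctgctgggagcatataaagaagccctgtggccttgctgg

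Cxcl1 held 2 matches, 79 and 61 bases before the start, and Cxcl2 held 2 matches, 87 and 68 bases before it. Cxcl3 held 1 match at 63 bases, and the letters GGGAATTTCC occur in all 3 promoters. Neither Cxcl15 nor Cxcr2 held a match in its window of 250 bases before and 50 after the start, and 535 of 32851 promoters in the RefSeq table (1.63%) held one. The TATA box letters TATAAA were found 24 bases before the start of Cxcl3 and 21 before that of Cxcl15, and in 13.6% of all promoters. The AP-1 letters TGANTCA (7.81% of all promoters) and the C/EBP letters TTGCNNAA (10.8%) were found in none of the 5 promoters read.

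Over the libraries of all tissues the 6 genes had 3 leading cell types, neutrophils, fibroblasts and alveolar type 2 (AT2) cells, and fibroblasts led in the tumor tissues and not in lung. Clusters were made without these 6 genes and named from marker genes, neutrophils for example from S100a8, S100a9, Csf3r, Retnlg, Mmp9, Mmp8 and Clec4d, and all names below mean cells that are like the named type by such markers. The receptor Cxcr2 was highest in neutrophils, at 1441 ± 486 CPM (SD, n = 9 libraries), and no library of another type came near the lowest neutrophil library at 687 CPM. Classical monocytes were next at 57.0 ± 67.9 CPM and did not differ from alveolar macrophages (52.5 CPM) or NK cells (49.4 CPM) beyond their spread. After every cell was thinned to 1000 UMIs, 72.0% of neutrophils held a Cxcr2 UMI (95% exact binomial interval 70.0 to 73.9%, counting error only), against 0.709% of T cells, a type that should lack the receptor. Both types were sequenced to like depth, with median UMIs of 2349 and 2463 per cell. Other types not known for the receptor held a UMI more often, at 7.04% of B cells, 9.47% of AT2 cells and 10.7% of ciliated cells, and unchallenged lung 6 gave 7758 of the 8588 ciliated cells.

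Cxcl2 was also led by neutrophils, at 4044 ± 3379 CPM (n = 9), and their lowest library (1320 CPM) lay above every library of every other type. C1q macrophages followed at 377 ± 350 CPM (n = 10), then classical monocytes at 209 ± 186 CPM, alveolar macrophages at 120 ± 53 CPM and nonclassical monocytes at 104 ± 109 CPM, and these 4 types overlapped. A Cxcl2 UMI was held by 44% of thinned neutrophils and 18.0% of C1q macrophages, against 0.506% of T cells, 8.90% of ciliated cells and 11.1% of AT2 cells. Cxcl3 stood at 410 ± 865 CPM in neutrophils and 142 ± 323 CPM in C1q macrophages, overlapping each other, and at a mean of at most 3.13 CPM elsewhere.

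Over the libraries of all tissues, Cxcl1 and Cxcl5 had their highest means in cells named fibroblast, and in lung alone they did not. In the tumor tissues most of these UMIs lay in a cluster that also raised pericyte or smooth muscle markers, described below. In unchallenged lung, Cxcl1 stood at 7.26 ± 10.1 CPM in fibroblasts (n = 3) and 9.95 ± 9.63 CPM in C1q macrophages (n = 4), and Cxcl5 at 1.00 ± 1.74 CPM in fibroblasts (n = 3) and 2.51 ± 3.55 CPM in club cells (n = 2), and in both cases the types overlapped. Cxcl1 reached 85.4 ± 95.0 CPM in fibroblasts (n = 8), 11.4 ± 10.8 CPM in C1q macrophages and 4.11 CPM in neutrophils, and no UMI of it was counted in 988 T cells thinned to 1000 UMIs, which allows a share of up to 0.373% (exact 95% bound) of cells with a UMI, and sets no limit on cells that express the gene below this depth. Cxcl5 reached 35.4 ± 41.6 CPM in fibroblasts and 7.77 ± 10.7 CPM in club cells, the secretory cells of the airway, and had a mean of at most 0.653 CPM in other types. Few fibroblasts held either ligand at 1000 UMIs, 2.70% for Cxcl1 and 1.21% for Cxcl5. Cxcl15 belonged to AT2 cells, the surfactant makers, at 3050 ± 1250 CPM (n = 3), with 69.5% of thinned cells holding a UMI. Club cells were next at 197 ± 144 CPM and did not overlap AT2 cells.

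**Figure D1:**
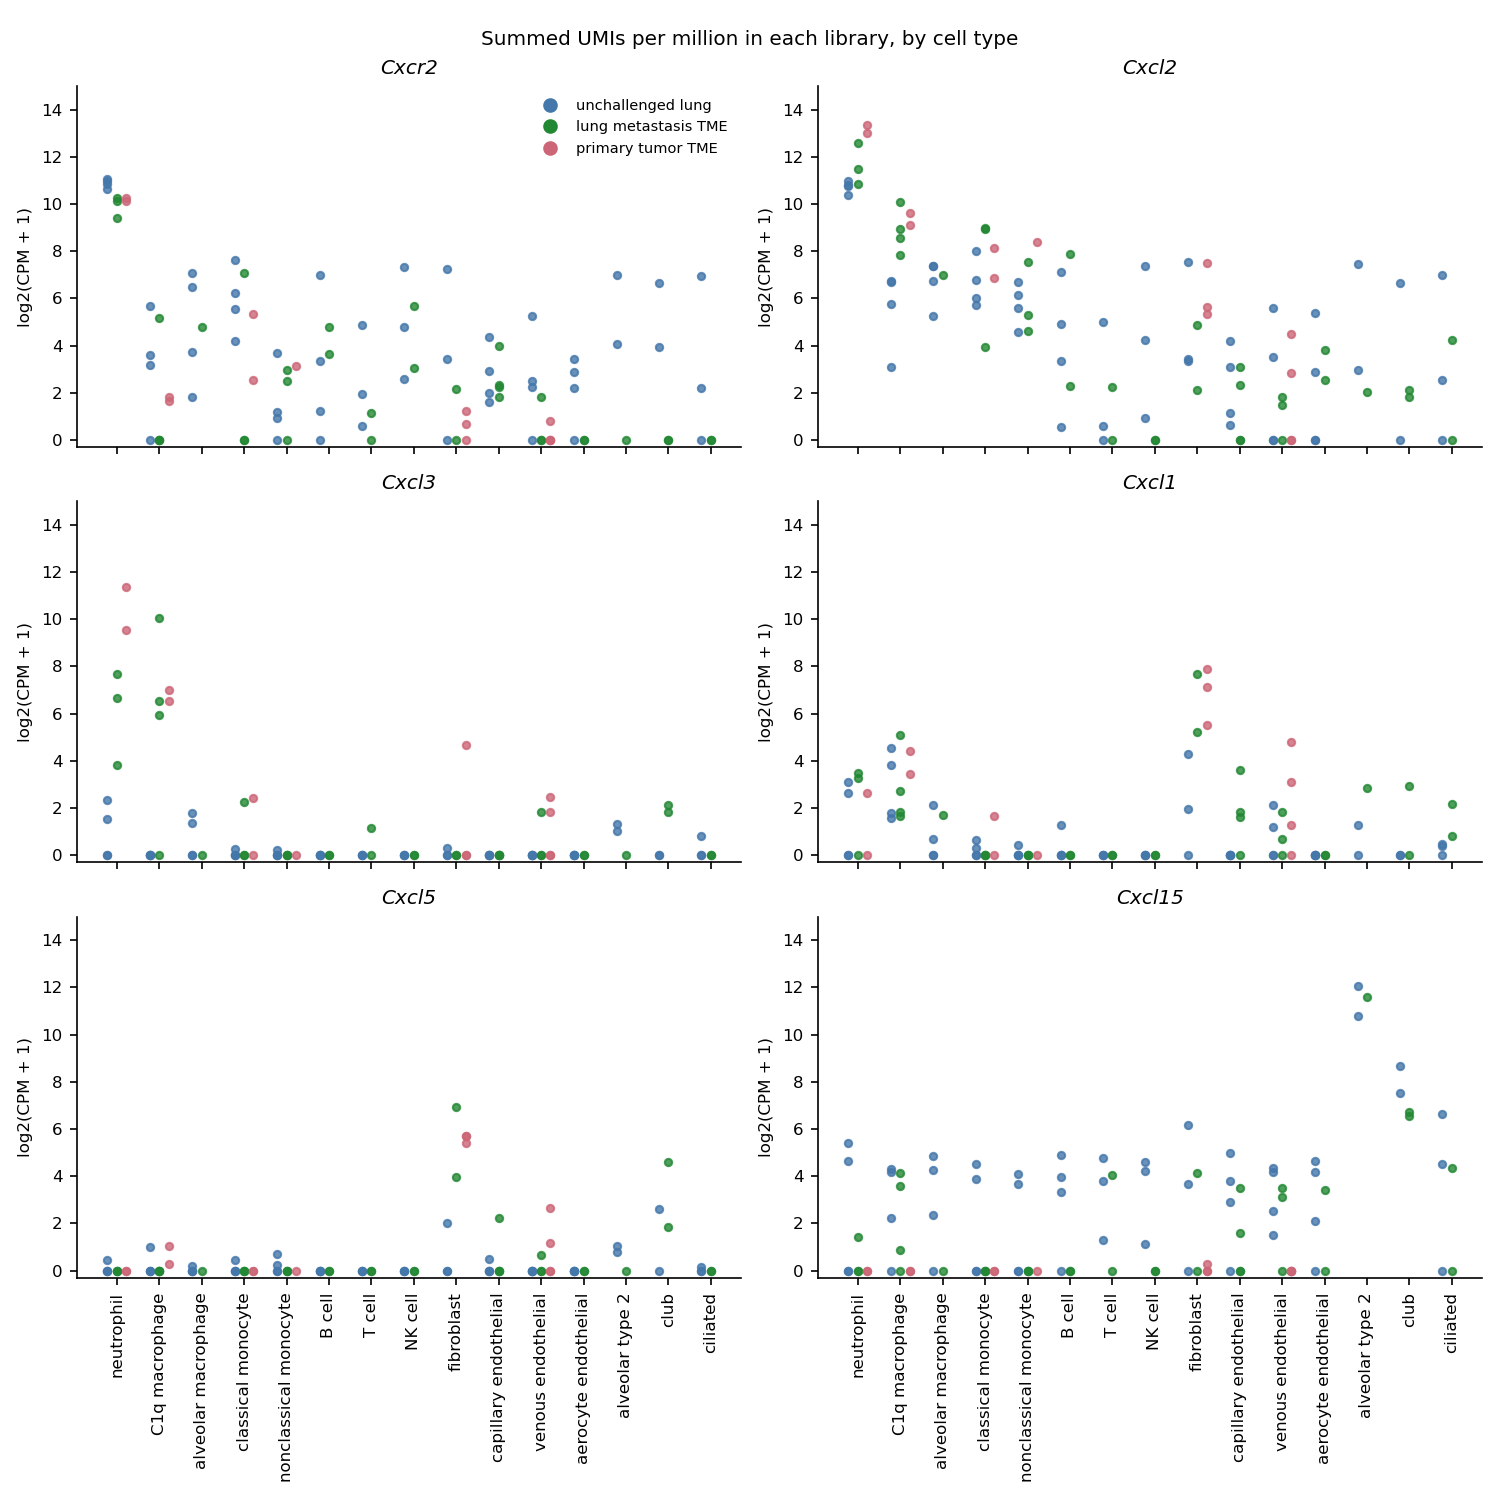
Level of the 6 genes in each cell type, as log2(CPM + 1) on the vertical axis, with 1 point for each library with at least 20 cells of the type and colors for the tissue. Cxcr2 and Cxcl2 peak in neutrophils, Cxcl15 in AT2 cells, and Cxcl1 and Cxcl5 in cells named fibroblast, where the lung points lie lowest.

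The cell types expected from what these genes are known for were compared with all other cells of the same library, in 7 pairs of gene and type, by a two-sided exact sign-flip permutation test over libraries with at least 10 cells of the type. Cxcr2 was higher in neutrophils in 10 of 10 libraries, by 7.38 ± 1.73 (SD) on the log2(CPM + 1) scale (exact p = 0.00195, the smallest this design allows, adjusted p = 0.00684). Cxcl2 was higher in neutrophils in 10 of 10 libraries, by 5.46 ± 1.56 (exact p = 0.00195, adjusted p = 0.00684). Cxcl1 was higher in fibroblasts in 8 of 10 libraries, by 2.71 ± 2.57 (exact p = 0.0156, adjusted p = 0.0365), and its adjusted p rose to between 0.0547 and 0.0729 when any 1 of 8 libraries was left out, namely lung 5 or 6, metastasis 5 or 6, or primary tumor 1-3, 4, 5 or 6, with ratios of 2.24 to 2.88. Cxcl15 was higher in AT2 cells in 5 of 5 libraries, by 8.24 ± 2.32, and in club cells in 4 of 4, by 0.75 ± 0.53. Their exact p-values, 0.0625 and 0.125, are the smallest that 5 and 4 libraries can give.

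Cxcl3 in neutrophils (1.41 ± 3.01, higher in 7 of 10 libraries, exact p = 0.168) did not pass the test, with a value of 2.18 and an adjusted p of 0.0273 without metastasis replicate 4, whose 11 neutrophils held no Cxcl3 UMI. Cxcl5 in AT2 cells (-0.29 ± 0.94, higher in 2 of 5, exact p = 0.5) did not pass either. AT2 cells held 4 Cxcl5 UMIs in 1817 cells.

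Neutrophils, which bear the receptor, also carried more RNA of their own ligands in the tumor tissues. In lung metastases their Cxcl2 was 2.24-fold and their Cxcl3 40.9-fold that of unchallenged lung. In primary tumors Cxcl2 was 5.79-fold and Cxcl3 532-fold that of lung, folds from edgeR's quasi-likelihood fit. In the TME libraries with at least 20 neutrophils Cxcr2 was lower in metastasis and primary tumor than in lung, but this difference did not pass the adjusted test.

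Cxcl2 stood at 1320, 1996, 1773 and 1723 CPM in the neutrophils of lung replicates 1, 4, 5 and 6. In metastasis replicates 1-3, 5 and 6 it stood at 2881, 1862 and 6151 CPM, and in primary tumor replicates 1-3 and 4 at 8254 and 10441 CPM. Metastasis 5 lay inside the lung range, the other metastasis libraries above it, and both primary tumor libraries above all others. The log2 difference from lung was 1.17 ± 0.35 (SE) in metastasis (edgeR adjusted p = 0.0364) and 2.53 ± 0.38 in primary tumor (edgeR adjusted p = 0.0011). The metastasis call was lost without metastasis 6 (0.59, adjusted p = 0.266) and without lung 1, 4, 5 or 6 (1.05 to 1.22, adjusted p from 0.065 to 0.121). Within sequencing runs, as the library names give them, the log2 ratio of metastasis to lung was 1.12 and 1.20 and that of primary tumor to lung 2.64 and 2.39.

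Cxcl3, a close relative of Cxcl2, was at 0, 0, 4.04 and 1.93 CPM in lung replicates 1, 4, 5 and 6. It stood at 99.6, 13.2 and 204 CPM in metastasis replicates 1-3, 5 and 6 and at 2628 and 737 CPM in primary tumor replicates 1-3 and 4. The 3 tissues did not overlap, but the value of metastasis 5 is 1 UMI and that of lung rests on 13 UMIs in 4 libraries. The log2 differences from lung were 5.35 ± 0.72 in metastasis (edgeR adjusted p = 0.000362) and 9.06 ± 0.73 in primary tumor (edgeR adjusted p = 1.1e-05), and metastasis lay below primary tumor by -3.70 ± 0.58 (edgeR adjusted p = 0.0230). When 1 library was left out both differences from lung stayed past the threshold, with values from 4.53 (without metastasis 6) to 6.05 (without lung 5) in metastasis and from 7.98 (without primary tumor 1-3) to 9.68 and 9.85 (without primary tumor 4 and lung 5) in primary tumor. Without primary tumor 1-3 or 4 that tissue is a single library, assumed to vary like the other groups. The difference between metastasis and primary tumor was -2.63 without primary tumor 1-3 and -4.36 without primary tumor 4, and its call was lost without metastasis 6 (-4.58, adjusted p = 0.0621) and with DESeq2 (-4.02, adjusted p = 0.0739). In the same contrast Cxcl2 stood at -1.37 ± 0.41 (edgeR adjusted p = 0.381), which DESeq2 called (-1.40, adjusted p = 0.0488). Few cells carried the signal: in primary tumor 1-3, 4 of 33 neutrophils held the 198 Cxcl3 UMIs, 139 of them in 1 cell, and in primary tumor 4, 35 of 253 held 428. Without the top cell of each library, a choice made after seeing the data, the differences from lung were 5.57 (adjusted p = 0.00044) and 8.81 (adjusted p = 1.89e-05).

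Cxcr2 was at 2035, 2145, 1578 and 1835 CPM in lung neutrophils of replicates 1, 4, 5 and 6. In metastasis replicates 1-3, 5 and 6 it was at 1230, 687 and 1131 CPM, and in primary tumor replicates 1-3 and 4 at 1115 and 1216 CPM. Each of these 5 tumor tissue libraries lay below every lung library, and metastasis and primary tumor overlapped. The log2 difference was -0.82 ± 0.28 in metastasis (edgeR adjusted p = 0.0617) and -0.63 ± 0.32 in primary tumor (edgeR adjusted p = 0.241), and DESeq2 called the metastasis difference (-0.79, adjusted p = 0.0308). The 11 neutrophils of metastasis replicate 4, too few for these fits, held 2125 CPM of Cxcr2, above 3 of the 4 lung libraries, and 5285 CPM of Cxcl2. The 63 neutrophils of the sorted melanoma library of metastasis 4 held 1945 CPM of Cxcr2, above lung 5 and 6. Of the 6 genes, 3 passed the low-count filter in neutrophils. Cxcl3, sparse in lung, could pass it only through the tumor tissues. Its calls against lung are in part set by the filter, so the counts that follow are not a test. Between metastasis and lung 2 of the 3 were called, against 14% of the 3977 genes tested (11.1% higher), between primary tumor and lung 2 of 3, against 6.97% (5.93% higher), and between metastasis and primary tumor 1 of 3, against 0.201%.

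**Figure D2:**
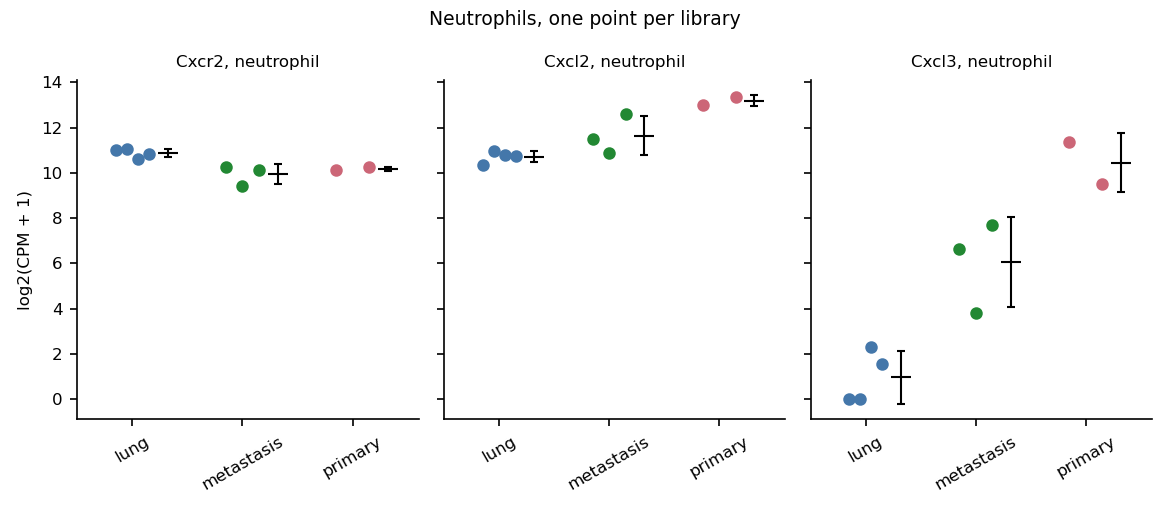
Cxcr2, Cxcl2 and Cxcl3 in neutrophils, as log2(CPM + 1), with 1 point per library and the mean ± SD of each tissue beside it. The lung libraries lie highest for Cxcr2 (1578 to 2145 CPM) and lowest for Cxcl3 (0 to 4.04 CPM), and the primary tumor libraries lie highest for Cxcl2.

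At 1000 UMIs per cell and without thinning, the share of neutrophils with a UMI had the same order of tissues as the level. At 1000 UMIs per cell, Cxcl2 was held by 39.7 ± 7.83% of lung, 52.9 ± 6.22% of metastasis and 68.3 ± 10.5% of primary tumor neutrophils (46.5, 56.1 and 74.7% without thinning). Cxcr2 was held by 81.8 ± 7.27%, 59.2 ± 4.87% and 60.5 ± 0.0932% (93.5, 69.1 and 77.9% without thinning), and Cxcl3 by 0.108, 3.37 and 10.8% (0.181, 4.23 and 13%). At 2000 UMIs per cell the order of lung and metastasis did not hold for Cxcl2, at 44.3% of lung, 43.1% of metastasis and 76.2% of primary tumor neutrophils, with 8 cells left in metastasis 5, of which 12.5% held it. At that depth Cxcr2 was held by 95.6, 56.7 and 72.1% and Cxcl3 by 0.350, 6.01 and 14.9%. Every thinned neutrophil of the metastasis and primary tumor libraries with a Cxcl3 UMI also held Cxcl2, which were 3, 1 and 9 cells in metastasis 1-3, 5 and 6 and 4 and 27 cells in primary tumor 1-3 and 4. Cxcl2 was found in cells with a Cxcr2 UMI and in cells without one. In primary tumor 4, 54.8% of cells with Cxcr2 and 72.4% of cells without it held Cxcl2, in primary tumor 1-3 71.4% and 91.7%, and in metastasis 1-3 44.3% and 50.0% and metastasis 6 52.3% and 62.5%. In metastasis 5 the order was the other way, at 69.6% of 23 cells and 29.4% of 17. In lung 1, 4, 5 and 6 the shares were 35.0% and 33.3%, 53.5% and 37.5%, 36.6% and 35.4%, and 40.0% and 51.8%, in neither order throughout.

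Macrophage RNA moved with these values. The summed level of the 7 C1q macrophage markers in neutrophils was 112 to 284 CPM in lung, 314 to 567 CPM in metastasis and 438 to 2962 CPM in primary tumor. A C1q UMI was found in 0 to 3.61% of lung neutrophils, in 2.44 to 24.4% of metastasis neutrophils and in 36.4% and 93.7% of those of primary tumor 1-3 and 4. With these cells left out, a choice made after seeing the data, too few primary tumor neutrophils were left to test, Cxcl3 dropped under the filter, and Cxcl2 in metastasis stood 1.24 above lung on the log2 scale (edgeR adjusted p = 0.0513). The part of macrophage RNA in the primary tumor difference was not tested.

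C1q macrophages, the tissue macrophages that make complement C1q, had the second highest means of Cxcl2 and Cxcl3 over the libraries of all tissues. For Cxcl3 this order did not hold in every library of metastasis, with up to 1052 CPM in C1q macrophages and 13.2 to 204 CPM in neutrophils. In C1q macrophages both genes were higher in the 2 tumor tissues. Cxcl2 was 7.67-fold that of lung in metastasis and 10.4-fold in primary tumor. Cxcl3 had 0 UMIs in the lung libraries, which together allow up to 1.46 CPM (3 counts), and was found in 3 of 4 metastasis libraries and in both primary tumor libraries.

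Cxcl2 stood at 107, 7.43, 52.9 and 101 CPM in lung replicates 1, 4, 5 and 6, and at 229, 1069, 377 and 490 CPM in metastasis replicates 1-3, 4, 5 and 6. Primary tumor replicates 1-3 and 4 held 555 and 786 CPM. All 6 tumor tissue libraries lay above all 4 lung libraries. The log2 differences were 2.94 ± 0.53 in metastasis (edgeR adjusted p = 0.0029) and 3.38 ± 0.58 in primary tumor (edgeR adjusted p = 0.00204). Metastasis and primary tumor differed by -0.44 ± 0.56 and were not told apart. In metastasis 4, 128 UMIs came from 4 of 26 cells, 104 of them from 1 cell, and without the top cell of each library the differences were 2.49 (adjusted p = 0.0041) and 3.77 (adjusted p = 0.0005).

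Cxcl3 was at 0 in all 4 lung libraries, at 59.8, 1052, 0 and 93.3 CPM in metastasis replicates 1-3, 4, 5 and 6, and at 127 and 92.2 CPM in primary tumor replicates 1-3 and 4. Metastasis 5 overlapped lung and the other tumor tissue libraries did not. With 239 UMIs in metastasis and 0 in lung the level was at least 85.0-fold higher (edgeR adjusted p = 0.0084), and with 1575 UMIs in primary tumor at least 67.5-fold higher (edgeR adjusted p = 0.0233), against 3 counts over the lung libraries together. Without metastasis 4, 113 UMIs remained in metastasis and the bound was 42.8-fold, and without metastasis 1-3 it was 153-fold. The primary tumor call was lost without primary tumor 1-3 (adjusted p = 0.084) or lung 6 (adjusted p = 0.0672). All 126 Cxcl3 UMIs of metastasis 4 came from 1 cell, and without that library metastasis lay below primary tumor (-0.88) rather than above it (1.09 ± 1.01). In primary tumor 4, Cxcl3 was held by 9.48% of macrophages with a Cxcl2 UMI and 1.11% of those without, and in primary tumor 1-3 by 16.9% and 1.33%.

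Cxcl1 did not pass the filter in C1q macrophages. It stood at 22.1, 2.48, 13.2 and 1.98 CPM in lung, 2.56, 33.4, 5.55 and 2.17 CPM in metastasis and 9.74 and 20.7 CPM in primary tumor, and all 3 tissues overlapped. Cxcr2 was at 2.53 and 2.11 CPM in primary tumor and 0 to 49.6 CPM in lung, and the difference (-3.12 ± 1.03, edgeR adjusted p = 0.073) passed only without metastasis 6 (-3.16, adjusted p = 0.0455) or lung 4 (-3.51, adjusted p = 0.0303). Of the 6 genes, 3 passed the filter in C1q macrophages. Cxcl3, at 0 UMIs in lung, could pass it only through the tumor tissues. Its calls are in part set by the filter, so the counts that follow are not a test. Between metastasis and lung 2 of the 3 were called, against 7.25% of the 7049 genes tested (3.92% higher), and between primary tumor and lung 2 of 3, against 8.07% (3.65% higher). Between metastasis and primary tumor edgeR called 0 of 3 (1 before adjustment, 0 by DESeq2), against 0% of all genes. The neutrophil markers summed to 47.0 to 3131 CPM in the C1q macrophages of lung, 105 to 2014 CPM in metastasis and 204 to 341 CPM in primary tumor, and their part in the Cxcl2 level was not tested.

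Classical monocytes, the blood-derived precursors of tissue macrophages, held 64.6, 51.7, 110 and 253 CPM of Cxcl2 in lung replicates 1, 4, 5 and 6. They held 493, 14.5 and 501 CPM in the 3 metastasis libraries and 115 and 283 CPM in the 2 primary tumor libraries. Tissues overlapped, and the metastasis difference of 1.54 ± 0.61 (edgeR adjusted p = 0.433) passed only without lung 6 (2.18, adjusted p = 0.044). In this type edgeR called 0 of the 2 tested genes between metastasis and lung (1 before adjustment, 0 by DESeq2), against 0.389% of all genes, and 0 of 2 between primary tumor and lung (0 before adjustment, 0 by DESeq2), against 0.0898%. The neutrophil markers summed to 13022 CPM (median) in the metastasis monocytes and 3287 CPM in those of lung, and their part in the Cxcl2 level was not tested.

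In fibroblasts the primary tumor libraries, from another organ than lung, held 18.8-fold the Cxcl1 of lung fibroblasts, and Cxcl5 was higher in both tumor tissues. Cxcl1 was at 0, 18.9 and 2.93 CPM in lung replicates 4, 5 and 6, at 36.1 and 203 CPM in metastasis replicates 5 and 6, and at 44.3, 240 and 138 CPM in primary tumor replicates 4, 5 and 6. No tumor tissue library overlapped lung, and metastasis and primary tumor overlapped. The log2 difference was 4.23 ± 1.04 in primary tumor (edgeR adjusted p = 0.0288) and 3.84 ± 1.10 in metastasis (edgeR adjusted p = 0.126, DESeq2 3.89 and 0.00444). The primary tumor call was lost without primary tumor 5 or 6 or lung 4 or 6 (3.53 to 4.26, adjusted p from 0.0542 to 0.0845), with 3.53 without lung 6, 3.62 without primary tumor 5 and 5.87, still called, without lung 5 (adjusted p = 0.018). In primary tumor 5, 1 cell held 139 of the 178 Cxcl1 UMIs.

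Cxcl5 was at 3.01, 0 and 0 CPM in lung replicates 4, 5 and 6, a single UMI in all. It was at 14.4 and 122 CPM in metastasis replicates 5 and 6 and at 41.6, 51.3 and 50.5 CPM in primary tumor replicates 4, 5 and 6. All 5 tumor tissue libraries lay above lung. With 338 UMIs in primary tumor the ratio to lung was 267 (95% counting interval 47.6 to 10585, edgeR adjusted p = 0.0077), and with 61 in metastasis it was 159 (27.4 to 6372, edgeR adjusted p = 0.0313). The metastasis call was lost without metastasis 6 (log2 5.85, adjusted p = 0.103), without primary tumor 5 or 6 or lung 4, 5 or 6 (6.04 without lung 6 to 9.86 without lung 4, adjusted p from 0.0504 to 0.0697), and without the top cell of each library (adjusted p = 0.0891). Without metastasis 5 the difference was 8.75 (adjusted p = 0.0461), with a single metastasis library left, assumed to vary like the other groups, as without metastasis 6. The primary tumor call held without any 1 library, at a log2 difference of 5.84 without lung 6 and 9.63 without lung 4, against 7.50 with all. In primary tumor 4 and 5 the 47 and 38 UMIs came from 2 cells each, whereas in primary tumor 6 the 253 UMIs came from 93 of 2062 fibroblasts.

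**Figure D3:**
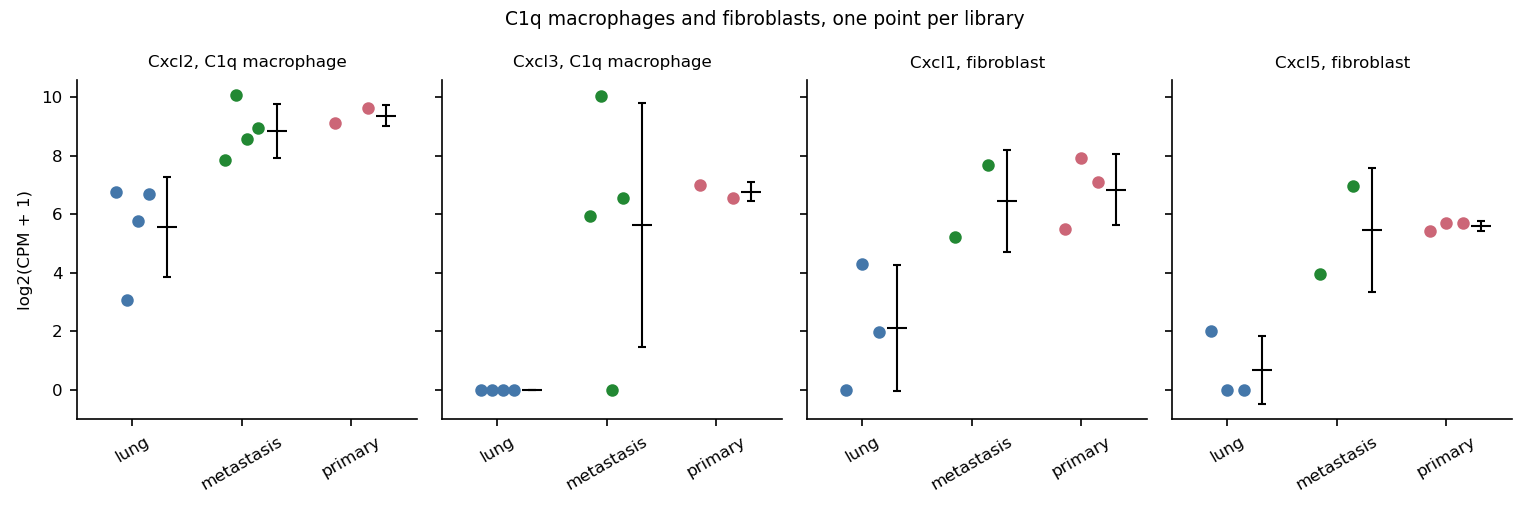
Cxcl2 and Cxcl3 in C1q macrophages and Cxcl1 and Cxcl5 in cells named fibroblast, as log2(CPM + 1), with 1 point per library and the mean ± SD of each tissue beside it. All metastasis and primary tumor points lie above the lung points except for Cxcl3 in metastasis replicate 5, which is at 0.

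Cxcl1 and Cxcl5 were seldom counted in the same cell, at a depth where each was found in few cells. In primary tumor 6, at 1000 UMIs per cell, 84 fibroblasts held Cxcl1 and 49 held Cxcl5, and 5 held both, so Cxcl5 was in 5.95% of cells with Cxcl1 and 3.05% of those without. Lung and tumor fibroblasts fell mostly into different clusters, all named fibroblast. The cluster that held 2375 lung fibroblasts had 5.89 CPM of Cxcl1 and 0.38 CPM of Cxcl5 in lung, and its 102 metastasis cells had 9.89 CPM (4 UMIs) and 2.47 CPM (1 UMI). A cluster of 1619 primary tumor fibroblasts, led by Ccl11, Lum, Cthrc1 and Postn, had 48.0 and 26.2 CPM, and its 24 metastasis cells had 0 UMIs of both. Another cluster, which also raised 5 pericyte or smooth muscle markers such as Rgs5, had 69.5 and 35.1 CPM in its 377 metastasis cells and 168 and 58.2 CPM in its 788 primary tumor cells. Its 45 lung cells held 0 UMIs of both. It held most fibroblast UMIs of Cxcl1 and Cxcl5, 119 and 60 in metastasis and 821 and 284 in primary tumor. The cluster led by Ccl11 held 99 and 54 in primary tumor. The fibroblast differences from lung therefore mostly compare different clusters, and the part of this was not tested.

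Cxcl15 and Cxcr2 were called lower in the fibroblasts of primary tumor than in those of lung (edgeR adjusted p = 0.0227 and 0.0305), and both are genes of other cells. Cxcl15 was at 0, 11.9 and 70.3 CPM in lung replicates 4, 5 and 6 and at 0, 0 and 0.2 CPM in primary tumor replicates 4, 5 and 6, and Cxcr2 at 0, 9.92 and 153 CPM and at 0, 1.35 and 0.6 CPM. The ratio of lung to primary tumor was 379 for Cxcl15, of which primary tumor held 1 UMI (95% counting interval 67.6 to 15038), and the log2 difference of Cxcr2 was -6.49 ± 1.61. The neutrophil markers summed to 6656 CPM in the fibroblasts of lung 6 and to 13.6 to 61.1 CPM in primary tumor. Without lung 6 the Cxcl15 log2 difference was -5.11 (adjusted p = 0.0517), against -7.20 with all libraries and -8.36 without primary tumor 6, and Cxcr2 dropped under the filter. Cxcl15 was also lost without primary tumor 4, 5 or 6 (adjusted p from 0.0561 to 0.138), Cxcr2 without metastasis 5 or 6 or primary tumor 4, 5 or 6 (adjusted p from 0.0608 to 0.142), and both with DESeq2 (adjusted p = 0.0673 and 0.0623). The Cxcl2 difference between primary tumor and lung fibroblasts was smaller than its error (0.34 ± 1.05, edgeR adjusted p = 0.878), and without lung 6, where it stood at 185 CPM, it was higher in primary tumor (3.26, adjusted p = 0.0468). Of the 6 genes, 5 passed the filter. Cxcl5, with 1 UMI in lung, could pass it only through the tumor tissues, and Cxcr2 did not pass it without lung 6. Their calls are in part set by the filter, so the counts that follow are not a test. Between metastasis and lung 1 of the 5 was called, against 0.871% of the 11131 genes tested (0.782% higher), and between primary tumor and lung 4 of 5, 2 of them higher, against 12.1% (5.12% higher). Between metastasis and primary tumor edgeR called 0 of 5 (1 before adjustment, 0 by DESeq2), against 1.12%. With the mouse as a block in the 2 pairs that share one, a choice made after seeing the data that leaves 1 residual degree of freedom, Cxcl2 was lower in metastasis (-2.17, edgeR adjusted p = 0.0157, against -3.17 and 0.578 without it).

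Cxcl15 in AT2 cells stood at 6329, 3298, 4262 and 1766 CPM in lung replicates 1, 4, 5 and 6, from 19, 9, 193 and 1410 cells. In metastasis replicates 1-3, 5 and 6 it stood at 3258, 3121 and 3406 CPM, from 12, 167 and 7 cells, inside the range of lung. Only 1 metastasis library held at least 20 AT2 cells, so the tissues were not tested. The lowest AT2 library, lung 6, is a shallow one. Club cells held 404 and 184 CPM of Cxcl15 in 2 lung libraries and 105 and 94.0 CPM in 2 metastasis libraries, and the difference did not pass (-1.47 ± 0.62, edgeR adjusted p = 0.42), where 1.56% of genes tested were called. Cxcl5 was seen in few club cells, with 17 UMIs in lung 6, none in lung 5 and 7 UMIs in metastasis 6. In lung 1, 2 of 5 club cells held 9 Cxcl5 UMIs.

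Summed over whole libraries, where fewer cells of a type and less RNA per cell cannot be told apart, 2 of the 6 genes differed between primary tumor and lung. Cxcl1 was at 1.62, 0.0499, 1.61 and 0.860 CPM in lung replicates 1, 4, 5 and 6, at 1.99, 1.82, 2.89 and 16.9 CPM in metastasis replicates 1-3, 4, 5 and 6, and at 7.77, 20.0, 101 and 103 CPM in primary tumor replicates 1-3, 4, 5 and 6. All primary tumor libraries lay above all lung libraries. The log2 difference from lung was 5.88 ± 1.16 (edgeR adjusted p = 0.0173) and lost its call without lung 5 (6.25, adjusted p = 0.0553). Cxcl15 stood at 184, 7.49, 234 and 152 CPM in lung and at 0, 0, 0.563 and 0.442 CPM in primary tumor (-9.57 ± 1.81, edgeR adjusted p = 0.0156), where no AT2 cells were found. Without primary tumor 4 the difference was -8.74 and without primary tumor 6 -11.0, both called. Metastasis 5 held 2069 melanoma cells among its 5166 cells, against 4 to 16 in the other TME libraries of metastasis and 6 to 14 in those of primary tumor, and their part in its whole-library levels was not tested. Without it the 6 genes gave no call between metastasis and lung (Cxcl1 2.77, edgeR adjusted p = 0.71) or between metastasis and primary tumor. Cxcl1, sparse in lung, and Cxcl15, near 0 in primary tumor, passed the low-count filter through the other tissues. Their calls are in part set by the filter, so the counts that follow are not a test. These 2 of 6 genes were called between primary tumor and lung, where 7.96% of 14399 genes were. Between metastasis and lung 0 of 6 were called by edgeR, where 0.375% were. Before adjustment 2 of 6 passed in that contrast, Cxcl1 (2.55 ± 1.03, adjusted p = 0.399) and Cxcl3 (5.88, adjusted p = 0.343), and DESeq2 called 1, Cxcl3 (5.94, adjusted p = 0.0414).

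Between metastasis and primary tumor, where 0.0486% of genes were called, 0 of the 6 passed in edgeR without pairing (2 before adjustment, 2 by DESeq2). Replicates 1-3, 5 and 6 share mice in this contrast and replicate 4 does not. With the mouse as a block over these 3 pairs, a choice made after seeing the data, Cxcl15 was higher in metastasis (7.45, edgeR adjusted p = 0.0233), while Cxcl1 (-3.37, adjusted p = 0.112) and Cxcl5 (-3.08, adjusted p = 0.107) did not pass. With the replicate number as a block over all 4 Cxcl15 was higher in metastasis (7.34, edgeR adjusted p = 0.00424), and Cxcl1 (-3.36, adjusted p = 0.0436) and Cxcl5 (-3.37, adjusted p = 0.0309) were lower. Libraries of the same number also share a sequencing run, so this block is not a pairing by mouse alone. Without a block these values were 8.26 (adjusted p = 0.122), -3.34 (adjusted p = 0.217) and -2.60 (adjusted p = 0.54). Cxcl5 stood at 0, 0, 1.16 and 9.53 CPM in metastasis replicates 1-3, 4, 5 and 6 and at 0.777, 2.90, 21.4 and 38.3 CPM in the primary tumor libraries of the same numbers, higher in primary tumor in the 3 pairs that share mice and in replicate 4.

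The tissues overlapped in Cxcl2 and Cxcr2. Cxcl2 ran from 33.6 to 223 CPM in lung, 9.22 to 832 CPM in metastasis and 16.3 to 962 CPM in primary tumor, and Cxcr2 from 21.1 to 175, 2.17 to 143 and 0.563 to 42.8 CPM. Neutrophils held 52.9, 53.5, 55.3 and 91.3% of the Cxcl2 UMIs of metastasis replicates 1-3, 4, 5 and 6, and 41.1 to 79.6% of those of lung 1, 4 and 5. In lung 6 neutrophils held 1787 of 9640 Cxcl2 UMIs, fewer than alveolar macrophages (2104) and ciliated cells (1993). C1q macrophages held 69.5 and 61.7% of those of primary tumor 1-3 and 4, and fibroblasts 100 and 91.1% of those of primary tumor 5 and 6, the libraries with 16.3 and 39.8 CPM of Cxcl2 and with 3 and 1 C1q macrophages. Cxcl1 came from C1q macrophages in primary tumor 1-3 and 4 (90.0 and 78.1%) and from fibroblasts in primary tumor 5 and 6 (99.4 and 98.1%). Primary tumor 5 and 6 also held 0 and 1 neutrophils, while primary tumor 1-3 and 4 held 452 and 2241 C1q macrophages. The type that held most UMIs of these chemokines therefore differed between libraries of the same tissue, as did the cells each library held. The sources do not say which libraries were depleted of CD45+ leukocytes, so the sort and the source cannot be told apart.

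**Figure D4:**
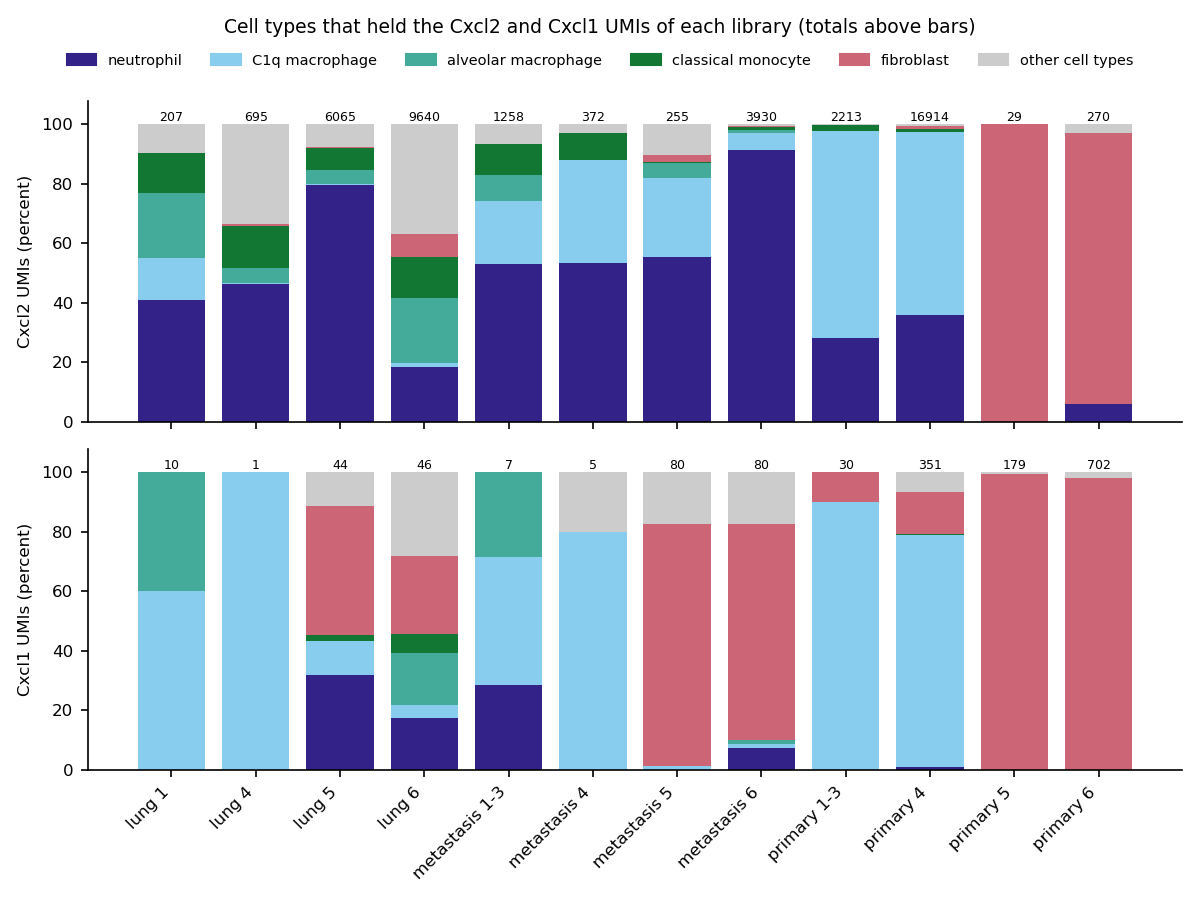
Percent of all Cxcl2 UMIs (top) and Cxcl1 UMIs (bottom) of each of the 12 lung and TME libraries held by each cell type, with the total number of UMIs above the bar. Neutrophils hold 91.3% of the Cxcl2 UMIs of metastasis 6, C1q macrophages hold 69.5% in primary tumor 1-3, and fibroblasts hold all of them in primary tumor 5.

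In 3 of the 4 sorted melanoma libraries almost no UMI of the 6 genes was counted, while metastasis MM 4, which also held neutrophils and AT2 cells, had 1105 Cxcl2 and 481 Cxcr2 UMIs in neutrophils and 47 Cxcl15 UMIs in AT2 cells. None of the 6 passed the low-count filter among 14643 genes tested, of which 0% were called. Metastasis MM 5, primary tumor MM 4 and primary tumor MM 5 held 6, 9 and 2 UMIs of Cxcl2, 6, 3 and 0 of Cxcl1, 13, 2 and 7 of Cxcr2, 2, 0 and 4 of Cxcl15 and 2, 0 and 0 of Cxcl5. Cxcl3 had 0 UMIs in these 3 libraries. In 9 other cell types, 11 contrasts gave 9 tests of the 6 genes, and 0 passed by edgeR or by DESeq2 (1 before adjustment), while without the low-count filter 10 did. Without that filter more of all genes were called too in several of these types, as given at the end. The share of all genes called between metastasis and lung was 0.0206% in B cells, 0.0643% in T cells, 0% in NK cells, 0.0866% in nonclassical monocytes, 0.367% in ciliated cells, 0.395% in capillary and 3.16% in aerocyte endothelium and 8.45% in venous endothelium. In venous endothelium it was 21.8% between primary tumor and lung and 3.65% between metastasis and primary tumor.

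Other genes, taken from lists chosen by function, were read in the same fits. Among 8 other neutrophil attractants, all tested in neutrophils, 2 rose in metastasis (14% of all genes tested were called), Saa3, an acute-phase protein (mean 63.9 CPM against 1.06 CPM in lung, not called by DESeq2), and Ccl4, a chemokine for macrophages and lymphocytes (1024 CPM against 87.5 CPM). The fibroblast markers summed to 43.3 to 753 CPM in metastasis neutrophils and 12.4 to 111 CPM in those of lung, and metastasis fibroblasts held 981 CPM of Saa3, and their part in the Saa3 level was not tested. The list median was 1.07 against -0.01 over all genes. In primary tumor neutrophils, where 6.97% of all genes tested were called, 2 of the 8 rose, Ccl3 (2015 CPM against 428 CPM, not called by DESeq2) and Ccl4 (3543 CPM), and the list median was -0.42 against -0.03 over all genes. Of 2 tested genes in a list of other CXC chemokines and chemokine receptors, Pf4, a chemokine of platelets and macrophages, rose in primary tumor neutrophils (119 CPM against 4.20 CPM). These cells also carried the C1q UMIs given above.

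The genes that pass on the Cxcr2 signal or induce its ligands were read against shares of 14% of all genes called in metastasis neutrophils and 6.97% in those of primary tumor, and counts of 0 or 1 in lists this short do not set them apart from all genes. Of 6 tested genes of Cxcr2 signalling, Grk2, the kinase that desensitizes the receptor, fell by 0.84 on the log2 scale in metastasis, and Pik3cg, a subunit of a kinase downstream of it, fell by 1.26 in primary tumor, neither called by DESeq2. Of 7 tested inducing cytokines and receptors 0 were called by edgeR in metastasis (2 before adjustment, 1 by DESeq2) and 0 in primary tumor (1 before adjustment, 0 by DESeq2). Among them Il1b, an inducer of Cxcl1 and Cxcl2 in stromal cells, stood at 6205 CPM in lung, 3219 CPM in metastasis (-0.85 ± 0.30, adjusted p = 0.072 by edgeR and 0.0335 by DESeq2) and 7535 CPM in primary tumor. Of 6 attractant receptors 0 were called in either contrast (2 before adjustment in each, 0 by DESeq2), with medians of -0.43 and 0.12. Of 7 NF-kB and mRNA decay genes 0 were called by edgeR in metastasis (1 before adjustment and by DESeq2, Zfp36) or in primary tumor (2 before adjustment, 0 by DESeq2), with medians of -0.49 and -0.22. Csf3r, the receptor of G-CSF and the one tested gene of its list of 3, stood at -0.75 in metastasis (adjusted p = 0.0851 by edgeR and 0.0393 by DESeq2) and at -0.62 in primary tumor.

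In C1q macrophages Saa3 rose from 1.94 CPM in lung to 87.5 CPM in metastasis and 17.4 CPM in primary tumor (the latter not called by DESeq2), 1 of 7 tested attractants in both, where 7.25 and 8.07% of all genes tested were called. Their summed fibroblast markers had medians of 53.6 CPM in lung, 123 CPM in metastasis and 106 CPM in primary tumor, and the tissues overlapped. Saa3 was also called higher in metastasis than in lung in aerocyte endothelium (mean 87.2 CPM in metastasis) and ciliated cells (63.8 CPM). The part of fibroblast RNA in the Saa3 level of these 3 types was not tested. Ccr1, a receptor of Ccl3, rose in the C1q macrophages of both tumor tissues (log2 1.85 and 1.98). Ltb4r1, the leukotriene B4 receptor, rose in primary tumor (1.25, not called by DESeq2) and Cxcl14 rose in metastasis (2.04). Nfkb1 (-1.15) and Relb (-1.42), NF-kB subunits, were lower in metastasis, 2 of 8 tested genes of that list. In fibroblasts Saa3 rose from 0.494 CPM in lung to 981 CPM in metastasis and 63.7 CPM in primary tumor, 1 of 8 attractants in both contrasts, where 0.871 and 12.1% of all genes tested were called. Zfp36, which speeds the decay of chemokine RNAs, was lower in primary tumor fibroblasts (-2.72) and Relb was higher (1.24). Csf3r (-6.70) and Cxcr4 (-3.43), genes of leukocytes, were lower there, beside the neutrophil markers of lung 6 given above. Single genes named here from the lists do not set a list apart from all genes.

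The genes most like each of the 6 across 103 sums of library and cell type were found by the Pearson r of log2(CPM + 1) among 14580 genes. These sums share libraries and depth. For Cxcr2 the closest genes were Il1f9 (0.918), Mirt2 (0.897) and Mmp9 (0.895), for Cxcl2 Clec4d (0.888), Clec4e (0.869) and Siglece (0.866), and for Cxcl15 Slc34a2 (0.922), Lamp3 (0.893) and Sftpb (0.888). Of these, Mmp9, Clec4d, Slc34a2, Lamp3 and Sftpb are markers that named the types. Cxcl1 was closest to Ccl7 (0.717), Igf1 (0.712) and Col14a1 (0.699), Cxcl3 to Rhov (0.774), Tmem189 (0.665) and Egln3 (0.662), and Cxcl5, a sparse gene, to Egfros (0.899), Ptprn (0.888) and Mirg (0.875). Among the 6 themselves the closest pairs were Cxcl1 with Cxcl5 (0.664), Cxcl2 with Cxcr2 (0.650) and Cxcl2 with Cxcl3 (0.57).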

How the data were processed

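The counts are the deposited UMI counts per gene and cell, made and filtered for cells by the authors (Cell Ranger 6.1.1, Seurat 3.2.2 and GRCm38 in the submitters' processing notes). Of 110283 barcodes, 9924 under 5 library names repeat another library and were removed. Cells were clustered with Seurat 5.3.0 (2000 variable genes without the 6 genes described, 17 components, 20 neighbors, resolution 0.5) and named from marker lists. No doublet caller was run, so mixed droplets remain. UMIs were summed per library and cell type with at least 20 cells and fitted with edgeR 4.0.16 (quasi-likelihood test, TMM, filter by expression, Benjamini-Hochberg over all genes, called below 0.05). DESeq2 1.42.0 was an alternative. Ratios within a library used CPM with a pseudocount of 1. R 4.3.3 and Python 3.11.15 were used. The edgeR fit was also run on simulated counts for primary tumor against lung, with changes set in well-counted genes. Of true log2 changes of 2 it recovered 29.3% in whole libraries, 67% in fibroblasts, 88.9% in neutrophils and 96.9% in C1q macrophages. Of changes of 3 it recovered 78.4% in whole libraries and 94.9% in fibroblasts. Genes not called in whole libraries may therefore differ.

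The 6 genes, the lists and the tests were chosen with earlier results of these data known. Genes are named as one of the 6, one of the 3 genes most correlated with each, or a member of a fixed list. A deposited table of normalized values was not used.

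By the mouse numbers in the deposited library names, metastasis and primary tumor replicates 1-3, 5 and 6 share mice, which pairs them, and replicate 4 and lung do not. Same-numbered whole libraries deviated together, with correlations of 0.696, 0.211, 0.544 and 0.298 between metastasis and primary tumor and of 0.703, 0.170 and 0.398 between metastasis and lung, but from -0.016 to 0.095 between primary tumor and lung. By their names, same-numbered libraries also share a sequencing run, run 1 for 1-3, run 2 for 4 and run 3 for 5 and 6. What they share by number and by run cannot be told apart. Within cell types most correlations were under 0.1. They ran from 0.00834 to 0.0992 in neutrophils, 0.00254 to 0.146 in C1q macrophages and -0.120 to 0.206 in fibroblasts. The lowest of all was -0.258 in capillary endothelium and the highest 0.253 in B cells. Depth per library (1777036 to 60339415 UMIs) limits sparse genes, and intervals cover counting error only.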

Additional observations from a re-analysis of the deposited data

Results flagged for a closer look

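Of 29 groups of 4 libraries checked for a library far from the others, 5 held one. The nominal rate of 1 in 20 holds for independent groups of normally distributed values. These groups share libraries and hold zeros, so the count of 5 is not read against that rate. In whole metastasis libraries, replicate 6 was highest for Cxcl1 (16.9 CPM, next 2.89 CPM) and for Cxcl5 (9.53 CPM, next 1.16 CPM). In the C1q macrophages of metastasis, replicate 4 was highest for Cxcl3 (1052 CPM, next 93.3 CPM, all from 1 cell) and for Cxcl1 (33.4 CPM, next 5.55 CPM), and replicate 1-3 was highest for Cxcr2 (35.0 CPM, the others at 0).

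A library sorted for melanoma cells, lung metastasis MM replicate 4, held 63 neutrophils among its 638 cells, which no comparison of neutrophils used. These neutrophils carried 4467 CPM of Cxcl2, 1945 CPM of Cxcr2 and 68.7 CPM of Cxcl3, against 12.1 CPM for 3 counts in that library. Both Cxcl2 and Cxcl3 lay inside the range of the 3 metastasis TME libraries with at least 20 neutrophils (1862 to 6151 CPM and 13.2 to 204 CPM). Cxcr2 lay above the range of these 3 (687 to 1230 CPM) but below the 2125 CPM of the 11 neutrophils of metastasis TME replicate 4, from a mouse whose number this melanoma library shares, where Cxcl3 was at 0 CPM.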

How the results depend on the processing

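Depth and cell numbers limit Cxcl1, Cxcl3 and Cxcl5, and the metastasis TME had 3 libraries and the primary tumor TME 2 with enough neutrophils. Clusters at resolution 1 and DESeq2's size factors reversed none of the values tried under them. Without the low-count filter, the 6 genes gave 2 calls in C1q macrophages between metastasis and primary tumor, 4 between primary tumor and lung, 1 in classical monocytes in both contrasts with lung, 1 and 3 in fibroblasts of metastasis against primary tumor and lung, and 10 in other types. More of all genes were called without the filter too, as given below. DESeq2 gave 2, 1 and 4 calls in whole libraries (metastasis against primary tumor, metastasis against lung, primary tumor against lung) and 2 in fibroblasts in both contrasts with lung. The replicate block gave 3 in whole libraries between metastasis and primary tumor, and under it Cxcl5 also passed between primary tumor and lung (6.66, edgeR adjusted p = 0.00281, against 4.98 and 0.0772 without it), where no mice are shared. With the mouse as a block, a choice made after seeing the data, whole libraries gave 1 call and fibroblasts 1 between metastasis and primary tumor (168 and 459 over all genes), and the block changed no other call of the 6 genes there. After choices made with the data seen, fibroblasts without their top cells gave 0 between metastasis and lung, and neutrophils without C1q UMIs gave 0.

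Directions turned, with the cause not tested, in the following values of differences that were not called. In C1q macrophages Cxcl3 between metastasis and primary tumor was -1.75 without top cells. In whole libraries Cxcl2 against lung was -0.71 in metastasis and -0.24 in primary tumor under the replicate block, and between metastasis and primary tumor Cxcl2 was 0.66 and Cxcl3 1.46 with the mouse as block. In fibroblasts between metastasis and primary tumor Cxcl1 was 0.25 without top cells, Cxcl5 -0.0975 under the block and -0.22 with the mouse as block, and Cxcr2 0.96 with DESeq2 and 1.30 under the block. Fibroblast Cxcl2 between primary tumor and lung was -0.27 with the 6 genes kept in clustering and -0.83 without top cells. Neutrophil Cxcr2 between metastasis and primary tumor was 0.0707 under the block and 0.0614 with at least 10 cells. Within 1 tissue, where too few libraries remain to pass, the ratios to the rest of the library were 1.5, 2.71 and 3.62 for Cxcl1 in fibroblasts (lung, metastasis, primary tumor), 5.31, 6.26 and 4.16 for Cxcl2 in neutrophils and 6.62, 7.68 and 8.30 for Cxcr2, and Cxcl3 passed at 2.18 with at least 20 cells.

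Leaving out 1 library gave ranges as follows. Calls among the 6 genes ran from 1 to 3 in C1q macrophages, whole libraries and fibroblasts between primary tumor and lung, 0 to 1 in fibroblasts and classical monocytes and 1 to 3 in neutrophils between metastasis and lung, 0 to 1 in neutrophils between metastasis and primary tumor and 0 to 3 in other types. Counts over all genes moved too, as from 191 to 1763 in whole libraries between primary tumor and lung. The ranges of the 6 genes are therefore not a result about them. Each such fit of the melanoma libraries left 1 library on a side, so its calls are not given. Log2 differences between metastasis and primary tumor ran from -0.88 to 1.51 for Cxcl3 in C1q macrophages, -1.44 to 0.41 for Cxcl2 in whole libraries, -8.28 to 3.76 for Cxcr2 in classical monocytes, and in fibroblasts from -1.97 to 0.40 for Cxcl1, -1.61 to 6.96 for Cxcl15, -1.74 to 1.22 for Cxcl5 and -3.42 to 2.33 for Cxcr2. Those between metastasis and lung ran for Cxcr2 from -0.64 to 0.10 in C1q macrophages, -0.83 to 0.0648 in whole libraries and -10.1 to 0.83 in classical monocytes, and from -8.75 to 0.59 for fibroblast Cxcl15. Fibroblast Cxcl2 between primary tumor and lung ran from -0.65 to 3.26. The source ratio ran from 2.24 to 3.18 for Cxcl1 and from 1.03 to 2.18 for Cxcl3.

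Counts of all called genes in whole libraries were 489, 2802 and 753 with DESeq2 against 54, 1146 and 7 (metastasis and primary tumor against lung, metastasis against primary tumor), 83, 1883 and 422 with the replicate block, and 2 for the last contrast without composition scaling or with DESeq2's size factors. Without composition scaling the median of all genes shifted by -0.15 between primary tumor and lung, with 454 higher and 613 lower calls against 619 and 527, and no called gene of the 6 changed direction. In cell types, given for metastasis against lung, primary tumor against lung and metastasis against primary tumor, all genes gave 555, 277 and 8 calls in neutrophils (927, 652 and 75 without the low-count filter), 511, 569 and 0 in C1q macrophages (884, 1663 and 224), 97, 1345 and 125 in fibroblasts (725, 2441 and 357) and 26, 6 and 0 in classical monocytes (215, 185 and 113). DESeq2 gave 27 in neutrophils and 12 in C1q macrophages for the last contrast, 536 and 313 in fibroblasts for the first and the last, and 102, 18 and 14 in classical monocytes. The replicate block gave 162 in neutrophils for the second contrast, 266, 195 and 11 in C1q macrophages and 73, 32 and 7 in classical monocytes. In these types 1 pair at most shares mice, so the block by mouse could not be fitted. At least 10 cells gave 59 and 198 in fibroblasts for the first and the last contrast, and neutrophils without C1q UMIs gave 363 for the first. Sorted melanoma libraries gave 0 calls with edgeR, 23 with DESeq2 and 16 with the block. In the other types counts differed by over 1.5 times mostly without the filter, as in B cells (90 against 1), T cells (53 against 4), capillary (364 against 30) and venous endothelium (1519 against 704).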
